A study of Rattus norvegicus with 2 samples.

Results

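The EGF receptor ligands Areg, Ereg and Hbegf, the receptor gene Egfr, its inhibitor Errfi1 and the MAP kinase phosphatase genes Dusp1, Dusp5 and Dusp6 were followed in rat sympathetic neurons with and without contact with their muscle target. These 8 genes were picked by name, with their values on these arrays already known, out of 10411 genes that a probe set of the array named alone. They were measured by 12 of the 15866 probe sets other than controls, 1 probe set each for 5 genes and several each for Egfr, Dusp1 and Dusp6. RNA came from sympathetic neurons (the noradrenergic neurons that supply the heart, vessels and other organs) cultured either alone or with myocytes, 1 Affymetrix Rat Expression Set 230A array for each condition. Per the labels' protocol, neurons in dishes that also held myocytes or other flat cells were lifted off with EDTA, being the less adherent cells, before total RNA was extracted. The groups follow the sample titles and source names, and the description field of the co-culture array names neurons grown alone, a conflict that was not settled. If the description held, both arrays would be of neurons alone, so every ratio and direction given here rests on the titles. The sources used here do not give strain, age, the number of animals or the time in co-culture. The study asked, per its design text, which genes accompany the stop of axon growth at the target. With 1 array a condition there is no replicate, no test was run, and each difference is one between these arrays.

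EGF receptor ligands are made as membrane-anchored precursors that surface proteases of the ADAM family release, so that a cell can signal to itself and to its neighbours. The activated receptor switches on the Ras, Raf, MEK and ERK kinase cascade, and ERK in turn induces early transcription factors together with proteins that shut the pathway off. Errfi1 (also called Mig6) binds the receptor's kinase domain and blocks it, Dusp6 removes the activating phosphates from ERK in the cytoplasm, Dusp5 does so in the nucleus, and Dusp1 acts in the nucleus on p38, JNK and ERK. In peripheral ganglia the pathway is active in Schwann and satellite glia and in fibroblasts as well as in neurons.

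On the probe set with the brightest signal, which gives a gene's value here, 3 of the 8 genes were at least 1.5-fold higher in neurons from co-culture: Areg, Errfi1 and Dusp5. Of the 6368 genes above the signal filter, 1.93% were at least 1.5-fold higher. Areg was the 1 member past 2-fold, a distance that 0.314% of genes reached upward. No member was 1.5-fold lower, where the share over all genes was 3.3%. Since the genes were chosen with these ratios in view, the counts describe the choice and nothing is read from them. The filter asked for a signal at or above the array's median (185.7 in neurons alone, 175.0 in neurons from co-culture) on at least 1 array, and 7 of the 8 genes met it. Only 4 met it on both arrays (Hbegf, Errfi1, Dusp1 and Dusp6). Areg and Dusp5 met it through the co-culture array and Ereg through the array of neurons alone, so these 3 entered by the array on which they were brighter. As log2 ratios of co-culture over neurons alone, the median was 0.23 over the 7 members above the filter and -0.01 over all genes above it. Without the filter it was 0.16 over the 8 members and 0 over all genes. Under other scalings of the arrays the share of higher ones among probe sets past 1.5-fold ranged from 17.9% (spiked controls) through 31.1% (as deposited) to 51.5% (median scaling), so shares in 1 direction depend on the scaling.

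The sequences before 4 of the genes are shown because Areg and Dusp1 hold the same full cyclic AMP response element (CRE), and because Areg, Errfi1 and Dusp5 were the genes past 1.5-fold. Each is the 250 bases before the annotated gene start, 5′ to 3′ on the gene's strand, from RefSeq on build GRCr8. Capitals mark every match, on either strand, to the motifs searched.
Areg (chr14:17265642-17265891, minus strand): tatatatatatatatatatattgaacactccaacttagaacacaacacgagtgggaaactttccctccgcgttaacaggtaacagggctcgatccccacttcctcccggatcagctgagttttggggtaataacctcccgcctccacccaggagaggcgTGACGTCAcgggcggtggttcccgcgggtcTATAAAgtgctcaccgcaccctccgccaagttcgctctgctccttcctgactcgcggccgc
Errfi1 (chr5:166606591-166606840, plus strand): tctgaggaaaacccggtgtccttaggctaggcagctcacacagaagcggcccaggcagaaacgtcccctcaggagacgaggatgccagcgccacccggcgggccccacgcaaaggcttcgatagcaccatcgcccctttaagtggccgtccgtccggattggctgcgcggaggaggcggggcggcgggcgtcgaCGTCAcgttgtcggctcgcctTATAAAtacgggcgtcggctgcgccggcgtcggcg
Dusp1 (chr10:17184603-17184852, plus strand): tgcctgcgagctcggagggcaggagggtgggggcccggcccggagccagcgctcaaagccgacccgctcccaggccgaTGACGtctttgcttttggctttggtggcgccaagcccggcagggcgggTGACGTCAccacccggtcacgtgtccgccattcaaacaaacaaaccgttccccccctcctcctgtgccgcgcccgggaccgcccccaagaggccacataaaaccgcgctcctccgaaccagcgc
Dusp5 (chr1:262543524-262543773, plus strand): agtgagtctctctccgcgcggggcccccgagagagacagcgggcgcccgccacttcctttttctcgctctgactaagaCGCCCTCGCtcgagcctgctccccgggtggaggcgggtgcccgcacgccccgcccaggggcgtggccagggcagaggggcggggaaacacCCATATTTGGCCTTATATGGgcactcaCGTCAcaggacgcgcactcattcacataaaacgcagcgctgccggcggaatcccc
The motifs were the CRE (TGACGTCA), its core TGACG, the AP-1 site TGANTCA, the CArG box that serum response factor binds, the EGR site GCGNGGGCG, the ETS site CCGGAAG, the TEAD site GGAATG and the TATA box TATAAA, and the CRE overlaps its own core on both strands.

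A full CRE lay 91 to 84 bases before the start of Areg and 124 to 117 bases before the start of Dusp1, and 1.59% of all 33469 RefSeq windows of the same length hold one. Its core was found in 5 of the 7 members with a window, and 18.2% of all windows hold it. The 5 were Areg, Dusp1, Errfi1 (56 to 52 bases before the start), Dusp5 (55 to 51) and Hbegf (193 to 189). Dusp5 held a pair of adjoining CArG boxes, from 82 to 73 and from 72 to 63 bases before its start, where 1.5% of windows hold any. It also held an EGR site, which 4.29% of windows hold. A TATA box stood before Areg and Errfi1 (12.9% of windows), and an ETS site before Egfr (7.27%). None of the 7 held an AP-1 or a TEAD site (6.34% and 12.1% of windows), and the Dusp6 window held none of the 8 motifs. Ereg had no entry. A match is a run of letters and not a bound site, and no match says only that these letters are not in the window. The members and the motifs were chosen with earlier results of these data known, so nothing is read from the motif counts.

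**Figure D1:**
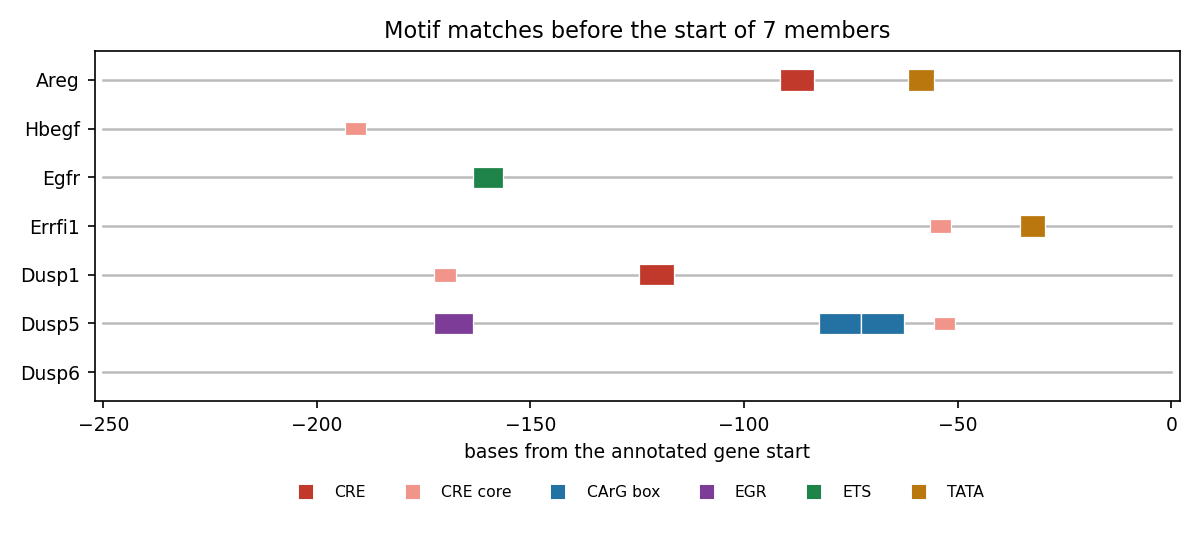
Positions of motif matches in the 250 bases before the annotated start of 7 members (x axis, bases from the start; 1 line a gene; coloured boxes, matches on either strand; low pale boxes, the CRE core outside a full CRE). Areg and Dusp1 carry a full CRE, Dusp5 carries adjoining CArG boxes, and Dusp6 carries no match.

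Among the 3 ligand members, Areg alone was higher in neurons from co-culture. Areg encodes amphiregulin, a ligand that binds the EGF receptor and also heparan sulphate. It read 87.4 without myocytes and 225.3 with them, a log2 ratio of 1.37 or 2.58-fold. The ratio was larger than the spread of a single probe set at low signal. That spread, an SD of 0.36 on the log2 scale, came from genes with several probe sets and is no replicate error. The array of neurons alone measured Areg under its median, and with the floor for low signals raised from the 20th to the 40th percentile the log2 ratio was 0.92, under 2-fold.

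Ereg, which encodes epiregulin, a ligand of the EGF receptor and of Erbb4, went the other way. It read 192.4 without myocytes and 140.3 with them, a log2 ratio of -0.46 and the lowest of the 8 members. It lies beside Areg on chromosome 14, where the annotated order of coding genes is Btc, Areg, Ereg and Epgn. Btc, the betacellulin gene on the other side of Areg, had 179.9 and 216.9 (log2 ratio 0.27), and Epgn was not named by a probe set. For Btc the ratio was within the spread of 1 probe set (0.36), and for Ereg it was a little past it as deposited. The Ereg ratio was near that spread under quantile normalization (-0.36), lowess (-0.36) and median scaling (-0.37).

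Hbegf encodes heparin-binding EGF-like growth factor, which binds the EGF receptor and Erbb4. It read 463.4 without myocytes and 390.1 with them, a log2 ratio of -0.25 that was within the spread of 1 probe set (0.29). Hbegf was above the median on both arrays. Of the 8 ErbB ligand genes that a probe set named, 5 were above the filter, 2 of them higher and 3 lower, with a median log2 ratio of -0.25. The members make up 3 of those 5. Btc, which was higher, met the filter through the co-culture array only. The other ligand past 1.5-fold as deposited was Nrg1, the neuregulin that axons present to Schwann cells through Erbb3. Its brightest probe set gave 189.4 and 120.0 (log2 ratio -0.66), above the filter through the array of neurons alone. Under quantile normalization, median scaling and lowess no ligand was 1.5-fold lower. Of the 8 Nrg1 probe sets, the next 2 in signal, both below the filter, were lower too (-0.86 and -1.08), while the fourth, at still lower signal, was higher (0.46).

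Transcripts of the receptor were low on both arrays. The brighter Egfr probe set read 147.4 without myocytes and 132.5 with them, below the median of each array (log2 ratio -0.15). Its other probe set read 5.41 and 5.47, under the floor of 39.6. Neither probe set thus gave more than a low reading in either condition. Of the other ErbB receptor genes, Erbb2 (123.3 and 102.3) and Erbb4 (39.5 and 11.5) were below the filter and are named with their values known. Erbb3, the neuregulin receptor of Schwann cells, read 160.5 without myocytes and 230.6 with them (log2 ratio 0.52), above the filter through the co-culture array. Erbb3 was past 1.5-fold under quantile normalization (0.62), median scaling (0.61) and lowess (0.61). It was further under 1.5-fold with scaling to the spiked controls (0.46) and with a pseudocount in place of the floor (0.43).

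Errfi1, the inhibitor of the receptor's kinase, read 358.5 without myocytes and 694.7 with them. The log2 ratio was 0.95, or 1.94-fold, above the spread of a single probe set (0.29) among genes of like intensity. Both arrays measured Errfi1 above the median, and over all scalings, floors and filters tried its log2 ratio lay between 0.88 and 1.04. The 8 other genes of receptor inhibition and breakdown above the filter ranged from -0.47 to 0.23 with a median of 0.01, 4 higher and 4 lower. Of these, the ubiquitin ligase gene Cbl had 601.1 and 597.8, and Socs5, of the family of cytokine signalling suppressors, had 898.5 and 1038. Among genes of ligand release, the metalloprotease Adam19 (2261 and 2130) and the tetraspanin Cd9 (1761 and 1569) were the brightest. The 7 of that list above the filter ran from -0.29 to 0.17, none at 1.5-fold.

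**Figure D2:**
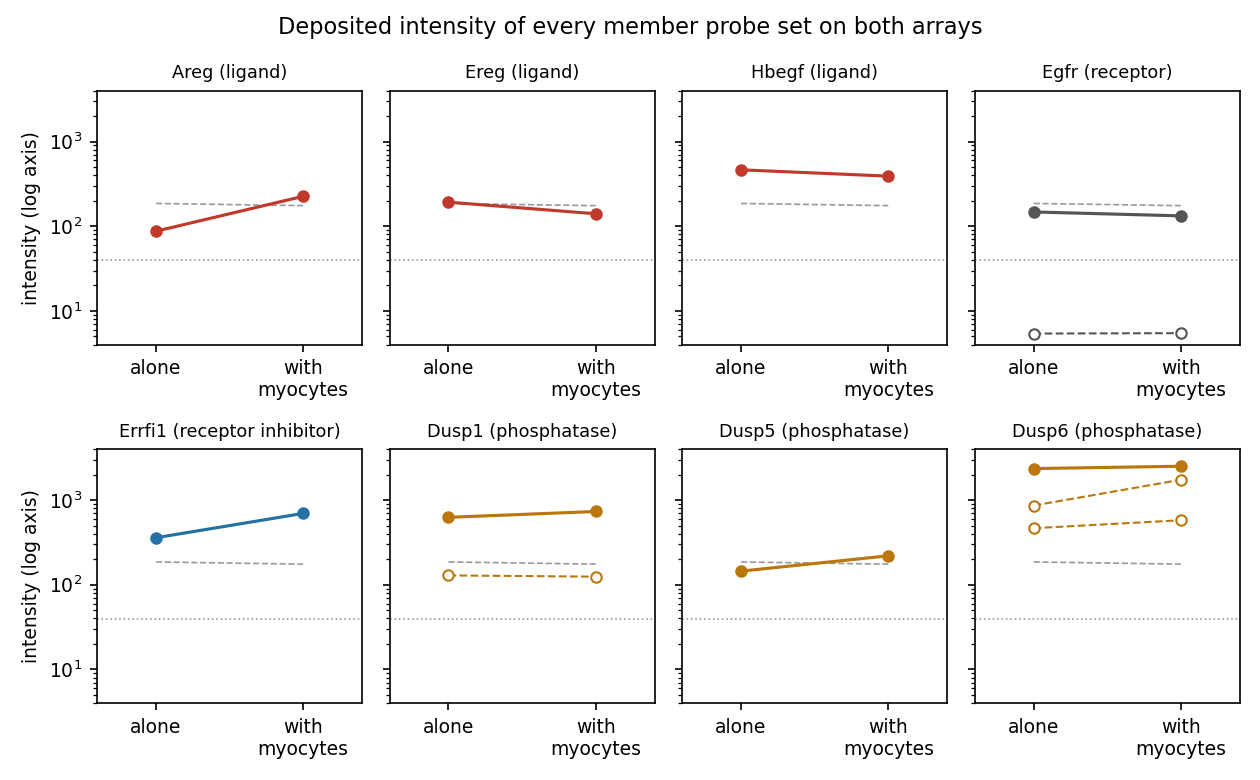
Deposited intensity (log axis) of each of the 12 probe sets of the 8 members in neurons alone and in neurons with myocytes, 1 array each (filled points and solid lines, a gene's brightest probe set; open points and dashed lines, its others; grey dashes, the array medians; grey dots, the floor of 39.6). Areg crosses the median from 87.4 to 225.3, Errfi1 goes from 358.5 to 694.7, and the 3 Dusp6 lines differ in slope.

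The phosphatase genes were higher on their brightest probe sets by unequal amounts, and only for Dusp5 was that ratio past the spread of 1 probe set. Dusp5, the nuclear ERK phosphatase, read 144.7 without myocytes and 219.4 with them. Its log2 ratio of 0.60 (1.52-fold) was just past 1.5-fold, and it was 0.54 with scaling to the spiked controls and 0.49 with a pseudocount in place of the floor, both under 1.5-fold. The signal was below the array median in neurons alone, and the spread of 1 probe set there was 0.36. Dusp1, which acts on p38 and JNK as well as ERK, had 624.6 and 731.9 (log2 ratio 0.23, within the spread of 0.27). Its other probe set, below the filter, had 128.8 and 124.5 (-0.05). The pair thus differed in sign as deposited, but not under median scaling (0.04), quantile normalization (0.06) or lowess (0.08).

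Dusp6, the cytoplasmic ERK phosphatase, gave a different answer on each of its 3 probe sets, all above the median on both arrays. The brightest, named by the RefSeq transcript, read 2349 without myocytes and 2504 with them, a log2 ratio of 0.09. That was within the spread of 1 probe set (0.21), and it was 0.03 under scaling to the spiked controls. A probe set named by an expressed sequence tag had 860.3 and 1733, a log2 ratio of 1.01 or 2.01-fold (0.95 under scaling to the spiked controls). The third, also named by an expressed sequence tag, had 464.6 and 577.1 (0.31). Their mean log2 ratio was 0.47. All 3 were higher in neurons from co-culture, but the range of 0.92 between them was wide: of the 749 genes that had more than 1 probe set over the filter, 4.81% had a range at least as wide, and the median range was 0.23. Whether Dusp6 counts as past 1.5-fold therefore rests on which probe set stands for the gene. The sources used here do not say which part of the transcript each probe set covers.

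**Figure D3:**
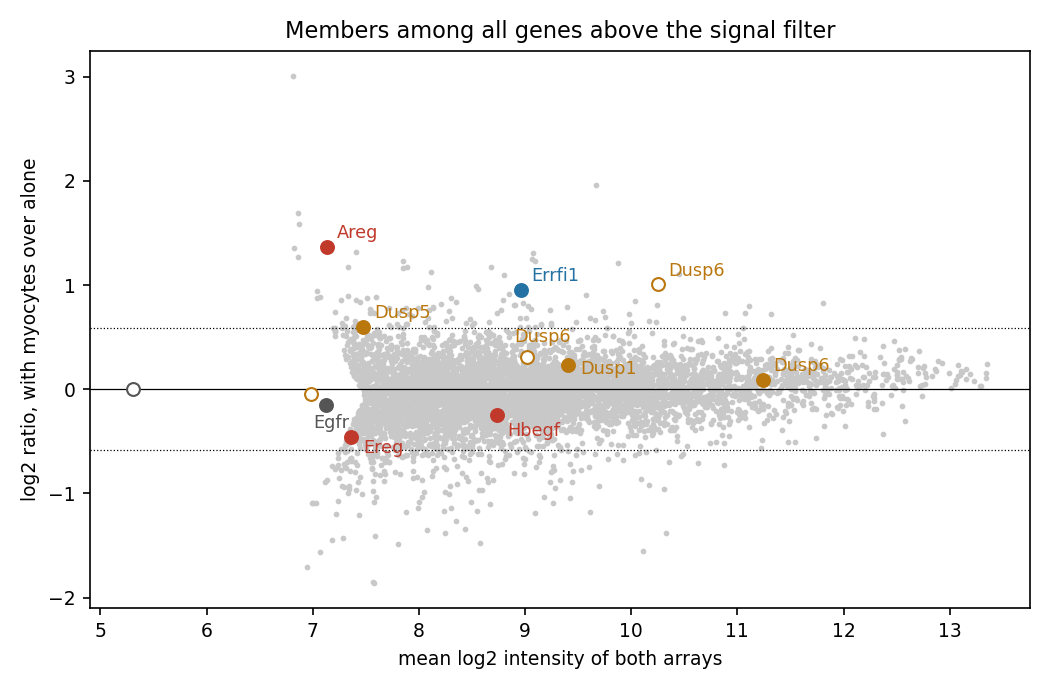
Log2 ratio of neurons with myocytes over neurons alone (y axis) against the mean log2 intensity of both arrays (x axis) for the 6368 genes above the signal filter (grey) and all 12 member probe sets (filled, brightest of a gene; open, others; red, ligands; grey, receptor; blue, Errfi1; brown, phosphatases; dotted lines, 1.5-fold). Areg, Errfi1 and 1 of the Dusp6 probe sets lie well above the dotted line, and Dusp5 lies on it.

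Beyond Dusp1, Dusp5 and Dusp6, the 3 other MAP kinase phosphatase genes named on the array were under 1.5-fold, and they are named with their values known. Dusp2 had 298.4 and 230.3 (log2 ratio -0.37). Dusp4 (73.9 and 76.7) and Dusp9 (57.2 and 58.0) were below the filter. A list of other dual-specificity phosphatases also holds the tyrosine phosphatases Ptpn5 and Ptprr that act on MAP kinases. Of 9 above the filter, 2 were higher and 7 lower, with a median of -0.23 and none at 1.5-fold. Over all genes 3356 of 6368 were lower. Each of the 7 was within the spread of 1 probe set, so nothing is read from the count. Ptpn5, lower, and Dusp12, higher, met the filter only on the array on which they were brighter. The brightest were Dusp3 (1275 and 1151) and Dusp26 (546.0 and 458.2). The MAP kinase phosphatase list above the filter had a median of 0.16, but 3 of its 4 genes are members chosen for their values.

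Of 9 other inhibitors of the ERK pathway above the filter, 6 were higher and 3 lower (median 0.08), and none reached 1.5-fold as deposited. The brightest were the Raf kinase inhibitor Pebp1 (3839 and 4056) and Ier3 (2514 and 2599), an early gene product known to bind ERK and prolong its phosphorylation, against the name of the list. The Sprouty genes, feedback inhibitors of receptor tyrosine kinases also named with their values known, went apart. For Spry1 the arrays gave 324.7 and 217.8 (-0.58 on the log2 scale), past the spread of 1 probe set (0.36). Scaling to the spiked controls took it past 1.5-fold (-0.64). Under quantile normalization, median scaling, lowess and trimmed mean scaling no gene of the list was 1.5-fold lower. Spry2 had 282.8 and 311.8 (0.14). The 13 genes of the ERK cascade itself that were named on the array were all above the filter. They lay between -0.31 and 0.30 (median -0.07, or 0.01 under median scaling). Their brightest were the ERK-activating kinases Map2k1 (1302 and 1261) and Map2k2 (1402 and 1549).

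Of the JNK and p38 cascades, 11 genes were above the filter, 7 higher and 4 lower (median 0.06, or -0.01 under scaling to the spiked controls). The 1 past 1.5-fold as deposited was Mapk9, a JNK kinase, with 293.0 and 189.8 (log2 ratio -0.63). Under quantile normalization, median scaling and lowess no gene of the list was past 1.5-fold. The brightest were Map3k12, a kinase of the axon injury response (1114 and 1069), and Map2k3, an activator of p38 (1064 and 1147).

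Of 24 genes above the filter on a list of early genes downstream of ERK, 17 were higher and 7 lower. Scaling to the spiked controls made that 15 and 9. Over all genes 3012 were higher and 3356 lower. The median of the 24 was 0.15 against -0.01 over all genes. At least 1.5-fold higher were 3 of the 24, beside 1.93% of all genes, and they were Fos, a subunit of AP-1 (134.9 and 248.0, log2 ratio 0.88), the stress-induced factor Atf3 (160.5 and 276.3, 0.78) and the zinc finger factor Egr2 (173.9 and 288.2, 0.73). Each of these 3 was below the median in neurons alone and above it in neurons from co-culture, as Areg and Dusp5 were. They thus entered the 24 by the array on which they were brighter. The list was chosen with earlier results of these data known, so nothing is read from its counts or its median. The other probe set of Fos, below the filter, was also higher (16.0 and 108.2). Arc, an activity-induced gene of neurons, went the other way (234.3 and 130.5, -0.84) and was above the median in neurons alone only. The brightest of the list were close on both arrays, Egr1 at 2382 and 2746 (0.21) and Ier3 at 0.05, so genes of this list differed in the size and sign of their ratios.

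**Figure D4:**
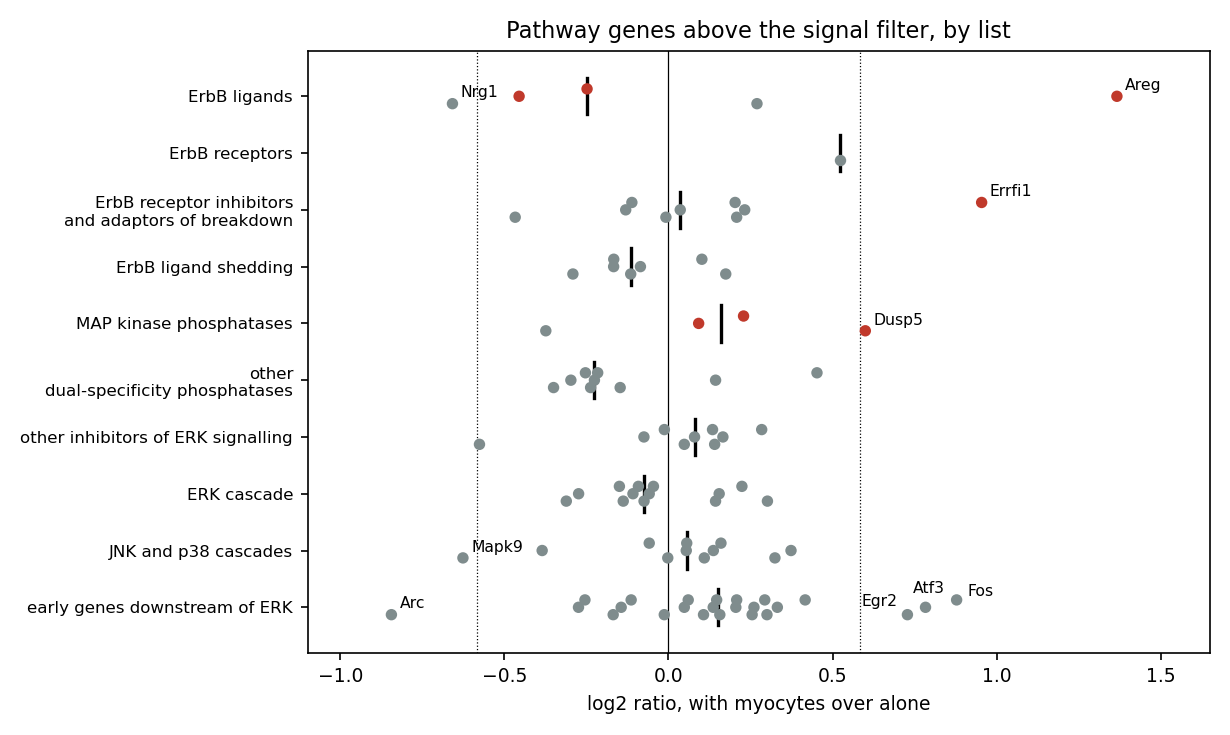
Log2 ratio of neurons with myocytes over neurons alone (x axis) for every gene above the signal filter in 10 pathway lists (y axis; points, genes on their brightest probe set; red, members; black bars, list medians; dotted lines, 1.5-fold). Areg, Errfi1 and Dusp5 lie to the right of the dotted line at 1.5-fold higher, with Fos, Atf3 and Egr2. Arc, Nrg1 and Mapk9 lie to the left of the line at 1.5-fold lower, and most cascade genes lie near 0.

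Markers of other cells than neurons were measured on both arrays. Less RNA per cell and fewer cells of a type cannot be told apart in such samples. All 16 sympathetic neuron markers were lower in neurons from co-culture (median -0.39), among them Th (6175 and 4575), Npy (6799 and 5507), Slc6a2 (551.6 and 217.5) and Gata2 (809.4 and 471.5). Their summed signal was 46311 without myocytes and 36817 with them, 0.795 of the first. Of 23 fibroblast and smooth muscle markers, 17 were higher as deposited (median 0.14), with a sum of 63497 and 69867. Under quantile normalization and lowess 14 were higher, with scaling to the spiked controls 16, and under median scaling 18. Mgp (412.2 and 1603) and Dcn (305.7 and 652.0) were past 2-fold, while Col1a1 (9988 and 10750) and Col1a2 (9350 and 9907) were nearly level. The 6 lower ones as deposited, named with their values known, were Thy1 (2018 and 1667) and the contractile and muscle filament genes Acta2 (4040 and 2913), Tagln (4094 and 3500), Myl9 (1687 and 1430), Myh11 (246.5 and 201.3) and Des (262.1 and 253.5). The other Thy1 probe set was lower too (1976 and 1125, log2 ratio -0.81). Des was nearly level and turned sign under median scaling (0.04), quantile normalization (0.04) and lowess (0.03). Of 10 Schwann and satellite glia markers above the filter, 7 were higher (median 0.11), where over all genes 3012 of 6368 were. The sum over the 15 glial markers on the array was 7773 and 8108. S100b (263.5 and 523.6) and Egr2 led the higher ones, and Pmp22 (3141 and 2916) and Cnp (835.5 and 1134) were the brightest. Pmp22, Mbp (log2 ratio -0.28) and Glul (802.2 and 614.3) were the 3 lower ones, the last pair named with their values known. Egr2 and Erbb3 stand on the glial list as well as on the pathway lists. These and Gfap (168.6 and 181.6) met the filter through the co-culture array only, on which they were brighter.

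Of 19 cardiac myocyte markers measured, 15 did not reach the filter, and the sum over all 19 was 1979 and 2428. The natriuretic peptide gene Nppb had 179.9 and 308.9, Tnnt2 had 293.2 and 408.2, and Pln 283.8 and 279.1. Of 14 macrophage markers, 9 were above the filter, 6 of them lower (sum 3478 and 2884), with Fcer1g at 795.6 and 460.2 and Lyz2 at 562.8 and 484.1. Csf1r (190.5 and 131.7) and Aif1 (202.6 and 159.9) met the filter through the array of neurons alone only. C1qc (179.9 and 183.1) did so through the co-culture array only, so each of these entered by the array on which it was brighter. Of 10 endothelial markers, Eng alone was above the filter (671.6 and 774.2), and the sum was 1225 and 1205. On the array where Areg, Errfi1 and Dusp5 were higher, all 16 neuronal markers were thus lower, and the fibroblast, smooth muscle and glial lists held both higher and lower markers. Of the 4 cardiac markers above the filter, 3 were higher, where over all genes 3012 of 6368 were, and Pln was level (-0.02, or 0.06 under median scaling). Of those 3, Nppa (177.6 and 201.1) and Nppb met the filter through the co-culture array only, on which they were brighter. The other probe set of Tnnt2, below the filter, was lower (63.3 and 47.2). The part of these cells in the members' values was not tested.

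Over the 2 arrays, the genes above the filter whose log2 intensities lay nearest to those of a member were named by distance alone. For Areg they were Rab20 (107.4 and 242.5, distance 0.32) and Abhd12 (95.0 and 182.4, 0.33). Near Errfi1 lay Ak3 (380.8 and 674.9, 0.10) and Rap1gds1 (363.6 and 634.9, 0.13). Near Dusp5 lay Smagp (144.7 and 224.5, 0.03) and Exosc5 (142.3 and 214.0, 0.04). Neither gene lay as close to Areg as these did to Dusp5, and with 1 value an array a short distance says only that the readings were alike.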

How the data were processed

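RNA of 2 samples was measured on 1-colour arrays, 1 array a group. The authors deposited 1 linear intensity a probe set. The design text names dChip 1.3 for quantification, while MAS5 is named per the submitters' processing notes. The sources used here do not say which program gave the deposited intensity, nor its background step or scaling, and no detection calls were used, so the number of arrays and the signal limit the precision.

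The intensities were used as deposited (2% trimmed means 367.6 and 360.6). Values under the pooled 20th percentile (39.6) were raised to that floor, and log2 ratios of co-culture over neurons alone were computed with Python 3.11.15, numpy 2.4.6 and pandas 2.3.3, and the step was tested on simulated data. The 57 control probe sets were left out. Of the others, 12783 had 1 gene symbol in the platform annotation, 312 had several and 2771 had none. The spread of 1 probe set was estimated from the log2 ratios of each gene's 2 brightest probe sets, as the SD of their difference over the square root of 2, in 4 groups by signal over 749 genes, or over 628 genes below the filter. Fold changes of 1.5 and 2 were counted with no test.

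The members, the lists, the motifs and the rule for named genes were chosen with earlier results of these data known. The rule took all members, up to 4 genes of a pathway list past 1.5-fold (2 of a marker list), its 2 brightest genes, and the 2 genes nearest each member past 1.5-fold. RefSeq windows were found for 7 of the 8 members.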

Additional observations from a re-analysis of the deposited data

How the results depend on the processing

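The 33 results were recomputed under 13 alternatives chosen together with the lists. Of 418 values, 394 stayed within 1.5 times the count or within the spread of 1 probe set, and 24 did not. The 394 include values that could not move, since a change of filter leaves each member's ratio as it was. List medians were held against the spread of 1 probe set (0.28), so a median could turn sign within it, as that of the ERK cascade did. The 394 are thus no measure of how firm the results are. The number of members past 2-fold upward was 2 under median scaling, where Errfi1 joined Areg, and 0 with the floor at the 40th percentile, where Areg was at 0.92. Dusp6 was at 0.47 as a mean over its probe sets. Over the alternatives Ereg ranged from -0.52 to -0.36, Hbegf from -0.31 to -0.16 and Dusp1 from 0.09 to 0.32. Counts of probe sets moved with the processing, from 159 higher and 352 lower at 1.5-fold and 28 and 68 at 2-fold. Median scaling gave 242 and 228 at 1.5-fold. A pseudocount gave 234 lower at 1.5-fold, and 17 higher and 43 lower at 2-fold. With no filter, and with the filter at the 25th percentile, there were 390 and 1021 at 1.5-fold and 82 and 213 at 2-fold, from more probe sets. The filter at the 75th percentile left fewer, 66 and 115 at 1.5-fold and 10 and 25 at 2-fold. The ErbB receptor median, which rests on Erbb3 alone, was -0.076 with no filter and -0.15 at the 25th percentile, where the endothelial median was -0.40, as dim genes entered. The median of the receptor inhibitor list was -0.03 under scaling to the spiked controls. For the other moved values the cause was not tested. No paired analysis was possible because each group has 1 sample.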
